A study of Mus musculus with 6 samples.

Results

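The genes of polyamine synthesis and breakdown, with the regulators of their first enzyme, were followed in quadriceps muscle of AR97Q mice with and without early exercise. The group holds 10 genes, Smox, Sat1, Odc1, Amd1, Srm, Sms, Paox, Azin1, Oaz1 and Oaz2, chosen by symbol or synonym from the annotation of the array probes. Probes named for 9 of them, and for Amd1 probes that the annotation gives to its copy Amd2, were measured among 25005 genes and transcripts tested, of which 15747 carry a matched gene symbol. The family was taken up because Smox was known from these arrays to be far higher with exercise, so its difference is given below as a description with no test. Amd2 also stands in the study's list of most raised genes from these same arrays. Its call below is therefore not independent of that list.

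AR97Q mice carry a human androgen receptor transgene with an expanded CAG repeat and serve as a mouse model for spinal and bulbar muscular atrophy, a disease of motor neurons and muscle. Quadriceps RNA was taken at 9 weeks of age from 6 male mice of this line, 3 in the exercise group and 3 in the sedentary group, and each sample was hybridised to 1 single-colour Agilent array. The exercise group had been trained on a forced running wheel during the presymptomatic period and the sedentary group had not. All 6 mice carried the transgene on a C57BL/6J background, and no wild-type array was analysed here, so the comparison is that of exercise within the transgenic line.

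Polyamines (putrescine, spermidine and spermine) are small, positively charged molecules that bind nucleic acids and are needed for translation and growth. Ornithine decarboxylase makes putrescine, and S-adenosylmethionine decarboxylase supplies the aminopropyl groups with which spermidine synthase and spermine synthase lengthen it. Spermine oxidase turns spermine back into spermidine and releases hydrogen peroxide and an aldehyde, and an acetylation route through Sat1 and Paox returns both longer polyamines towards putrescine. Antizymes bind ornithine decarboxylase, send it to the proteasome and restrain polyamine uptake, while the antizyme inhibitor Azin1 competes for them. In muscle, Smox, Odc1 and Amd1 are known as genes that respond to androgens.

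The start regions of the 3 enzymes whose transcripts differed most, with both gene copies for S-adenosylmethionine decarboxylase, are shown to set their composition side by side (RefSeq, build GRCm38.p6). Each window is the 250 bases before the start that RefSeq's promoter table uses, 5′ to 3′ on the gene's strand, and capitals mark matches to any of the 7 motifs named below. Only the bases outside the gene's annotated span are printed, because that start lies inside the span for Smox, by 4 bases, and for Odc1, by 65. The printed part of Smox, on the plus strand, is chr2:131491612-131491857 of a window that ends at 131491861. That of Odc1, on the plus strand, is chr12:17544623-17544807 of a window that ends at 17544872. Amd1 lies on the minus strand at chr10:40302189-40302438, and Amd2 on the minus strand at chr10:35711892-35712141.
Smox: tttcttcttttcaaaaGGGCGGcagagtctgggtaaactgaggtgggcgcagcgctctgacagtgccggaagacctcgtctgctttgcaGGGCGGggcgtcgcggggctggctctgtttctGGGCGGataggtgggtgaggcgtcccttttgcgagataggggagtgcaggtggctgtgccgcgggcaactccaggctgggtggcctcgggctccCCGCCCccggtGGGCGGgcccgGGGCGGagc
Odc1: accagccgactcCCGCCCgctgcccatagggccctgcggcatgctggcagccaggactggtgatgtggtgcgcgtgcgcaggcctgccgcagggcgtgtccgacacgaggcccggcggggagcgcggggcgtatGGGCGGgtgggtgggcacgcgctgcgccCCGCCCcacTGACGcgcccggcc
Amd1: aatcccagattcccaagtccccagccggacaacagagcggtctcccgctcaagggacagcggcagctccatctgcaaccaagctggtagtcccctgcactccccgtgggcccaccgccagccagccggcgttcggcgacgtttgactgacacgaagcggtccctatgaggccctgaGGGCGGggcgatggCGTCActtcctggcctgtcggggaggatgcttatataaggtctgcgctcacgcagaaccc
Amd2: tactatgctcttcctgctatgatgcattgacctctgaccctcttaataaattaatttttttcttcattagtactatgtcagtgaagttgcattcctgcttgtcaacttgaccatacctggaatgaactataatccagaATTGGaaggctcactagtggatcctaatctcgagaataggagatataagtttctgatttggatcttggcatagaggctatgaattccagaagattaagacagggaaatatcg

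The windows of Smox, Odc1 and Amd1 are rich in G and C, at 68.0%, 80.0% and 64.4%, against a median of 52.4% over 32851 windows of that length. The window of Amd2 is at 37.6%. Motifs were searched on both strands, with the letters GGGCGG for the GC box, CACGTG for the E-box, CAGCTG for the myogenic E-box, AGAACA for the steroid receptor half-site, TATAAA for the TATA box, TGACG for the CRE half-site and CCAAT for the CCAAT box. None of these contains another. The GC box occurred in 32.7% of all windows, the CRE half-site in 17.8% and CCAAT in 33.8%. The window of Smox held 6 GC boxes, that of Odc1 held 4, the last of them in the bases not printed, and a CRE half-site, and that of Amd1 held 1 and a CRE half-site. Amd2 had a CCAAT match and no GC box. The E-box (6.02% of all windows), myogenic E-box (13%), steroid receptor half-site (16.1%) and TATA box letters (12.4%) were not found in these 4 windows.

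All values below are log2 of the background-subtracted spot signal minus the 75th percentile of that array. A value of 0 is therefore the brightness of the probe at the 75th percentile, and a difference of 1 is a doubling of the ratio to it. Differences are exercise minus sedentary, and errors are the SD over 3 mice or the standard error (SE) of the limma fit across all genes. A gene was called changed where its limma p-value, adjusted by Benjamini-Hochberg over all 25005, was under 0.05. That threshold called 2868 genes and transcripts higher (11.5%) and 1530 lower (6.12%). The groups did not overlap for 10806 (43.2%).

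Among the 9 genes other than Smox, 3 rose with exercise and 0 fell by limma, and 6 were not called. Of all genes tested, 11.5% were called higher and 6.12% lower. The 3 that rose were S-adenosylmethionine decarboxylase at 4.01-fold, Odc1 at 1.66-fold and Oaz1 at 1.42-fold. The unadjusted p was under 0.05 for 5 of the 9, none of them lower, beside 37.0% of all genes tested. The median difference of the 9 was 0.22, beside 0.03 over all genes tested, and 6 of 9 were higher, beside 13225 of 25005. The groups did not overlap for 6 of the 9, beside 43.2% of all genes tested, and of these Paox was lower with exercise. With a minimum difference of 1 on the log2 scale added to the call, 1 of the 9, Amd2, was higher, beside 1.72% of all genes tested, and 0 were lower, beside 1.06%. Without any 1 of the exercise arrays, Sedentary 2 or Sedentary 3, 0 of the 9 were called by limma, although 4 had an unadjusted p under 0.05 each time. That loss was not particular to these genes, since 0 of all 25005 were then called higher and at most 1 lower. Without Sedentary 1, limma called Amd2 and Oaz1 but not Odc1, beside 3476 genes called higher.

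**Figure D1:**
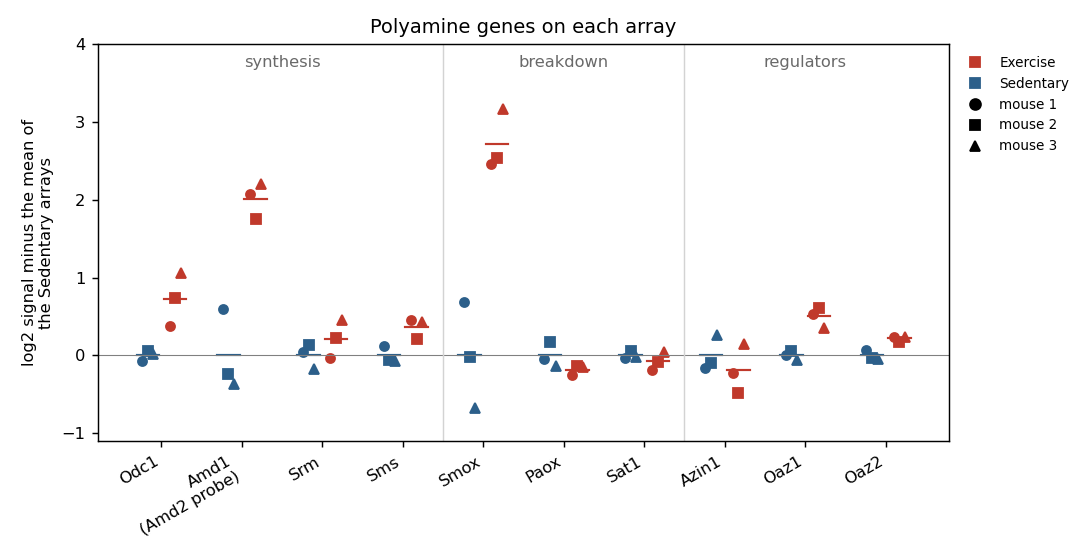
Signal of each of the 10 genes on each array, as log2 relative to the mean of the 3 sedentary arrays (y axis), with points for single mice, shapes for the mouse number and bars for the group means. Smox and Amd2 stand furthest apart, with gaps of 1.77 and 1.15 between the lowest exercise and the highest sedentary array.

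Smox encodes spermine oxidase, which oxidises spermine to spermidine (chr2:131491858-131525183 in GRCm38). Its log2 signal was 5.07, 5.14 and 5.77 in exercise mice 1 to 3 and 3.30, 2.59 and 1.93 in sedentary mice 1 to 3. Every exercise mouse lay above every sedentary mouse, and the sedentary mice spread more widely (SD 0.68, n = 3) than the exercise mice (SD 0.38, n = 3). The group means of 5.33 and 2.61 differ by 2.72 (SE 0.37), or 6.59-fold, which places Smox at rank 5 of 25005 by size of rise. Before scaling, its signals were 8623, 9058 and 13661 against 3051, 2232 and 1464. A second Smox probe was dimmer and showed the same gap, with a difference of 2.72 from 3.57, 3.59 and 4.27 against 1.78, 1.04 and 0.45. Sedentary 1, the highest of its group, sits in the same strip of the slide as the exercise arrays, and against that array alone the difference was 2.03.

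Amd1 encodes S-adenosylmethionine decarboxylase, the enzyme that provides decarboxylated S-adenosylmethionine for both aminopropyl transfers. All 4 probes that reach it carry an accession that the annotation gives to Amd2 (chr10:35708691-35711891), which lists the older Amd1 symbol among its synonyms, and the accession of Amd1 itself (chr10:40287458-40302188) carried no probe. Amd2 spans 3201 bases and Amd1 14731, and the annotation names 7 further Amd pseudogenes. Near-identical copies may hybridise to the same probe, so the signal is called Amd2 here and cannot be told apart between the copies.

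Amd2 signal was 7.28, 6.96 and 7.41 in the exercise mice and 5.81, 4.98 and 4.85 in the sedentary mice. The groups did not overlap, and Sedentary 1 was again the highest of its group. Amd2 rose by 2.00 (SE 0.27, 95% interval 1.34 to 2.67, limma adjusted p = 0.0234), from 5.21 ± 0.52 to 7.22 ± 0.23 (SD, n = 3). This was rank 40 by size of rise. Against Sedentary 1 alone the difference was 1.41. The other Amd2 probes gave differences of 2.04, 2.12 and 2.03, each with a limma adjusted p of 0.024 over all probes kept.

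Odc1 encodes ornithine decarboxylase, the first and short-lived enzyme of polyamine synthesis (chr12:17544808-17551502). Its signal was 4.13, 4.49 and 4.82 with exercise and 3.68, 3.81 and 3.77 without. The sedentary mice lay within a narrow band (SD 0.07) below all 3 exercise mice, which were spread more widely (SD 0.34). Odc1 rose by 0.73 (SE 0.18, 95% interval 0.30 to 1.16, limma adjusted p = 0.0413), and the second probe gave 0.78. Exercise 3 was the highest array for Odc1, and the difference fell to 0.56 without it. Under quantile normalization the limma adjusted p was 0.082.

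Srm and Sms add the aminopropyl groups. Srm, spermidine synthase (chr4:148591513-148594619), was at 1.11, 1.36 and 1.59 with exercise and at 1.18, 1.28 and 0.97 without. The groups overlapped, and the difference of 0.21 (SE 0.15, 95% interval -0.16 to 0.58, limma adjusted p = 0.347) was within the spread between mice. Its other probes gave 0.27 each. Sms, spermine synthase (chrX:157443851-157492287), was at 4.60, 4.36 and 4.57 against 4.27, 4.09 and 4.08. These did not overlap, and the difference of 0.37 (SE 0.11, 95% interval 0.11 to 0.63) missed the threshold at a limma adjusted p of 0.0625. Of the other 3 Sms probes, one gave 0.33 and the remaining ones 0.04 and -0.07, with overlapping groups.

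On the breakdown side, neither gene of the acetylation route was called. Sat1 encodes spermidine/spermine acetyltransferase, which marks polyamines for export or oxidation (chrX:155213126-155216449). Its signal was 2.31, 2.40 and 2.53 with exercise and 2.45, 2.54 and 2.46 without, a difference of -0.07 (SE 0.09, 95% interval -0.30 to 0.15, limma adjusted p = 0.603). The groups overlapped for this probe and for the other, at -0.21. Paox, the peroxisomal oxidase of acetylated polyamines (chr7:140115735-140134334), was at 1.78, 1.89 and 1.88 against 1.99, 2.20 and 1.90. The groups came within 0.01 of each other without overlapping, and the difference was -0.18 (SE 0.11, 95% interval -0.44 to 0.08, limma adjusted p = 0.265). Its dimmer probe gave 0.08 with overlap.

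Among the regulators, Oaz1 encodes the main antizyme (chr10:80826656-80829290). Its only probe read 6.18, 6.26 and 6.0 with exercise and 5.65, 5.71 and 5.58 without. The groups did not overlap and both were tight, and Oaz1 rose by 0.50 (SE 0.10, 95% interval 0.26 to 0.74, limma adjusted p = 0.0279). Against Sedentary 1 alone the difference was also 0.50, but under quantile normalization it was 0.26 (limma adjusted p = 0.093).

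Oaz2 encodes a second antizyme (chr9:65676548-65690300) and read 7.45, 7.38 and 7.44 against 7.27, 7.18 and 7.16. These did not overlap, at a small difference of 0.22 (SE 0.08, 95% interval 0.02 to 0.41) that was not called (limma adjusted p = 0.103). Quantile normalization turned the sign of Oaz2 to -0.13. Azin1, the antizyme inhibitor (chr15:38487430-38519294), read 1.67, 1.42 and 2.05 against 1.73, 1.80 and 2.16. The groups overlapped, and its difference of -0.18 (SE 0.19, 95% interval -0.66 to 0.29, limma adjusted p = 0.523) was within the spread between mice.

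**Figure D2:**
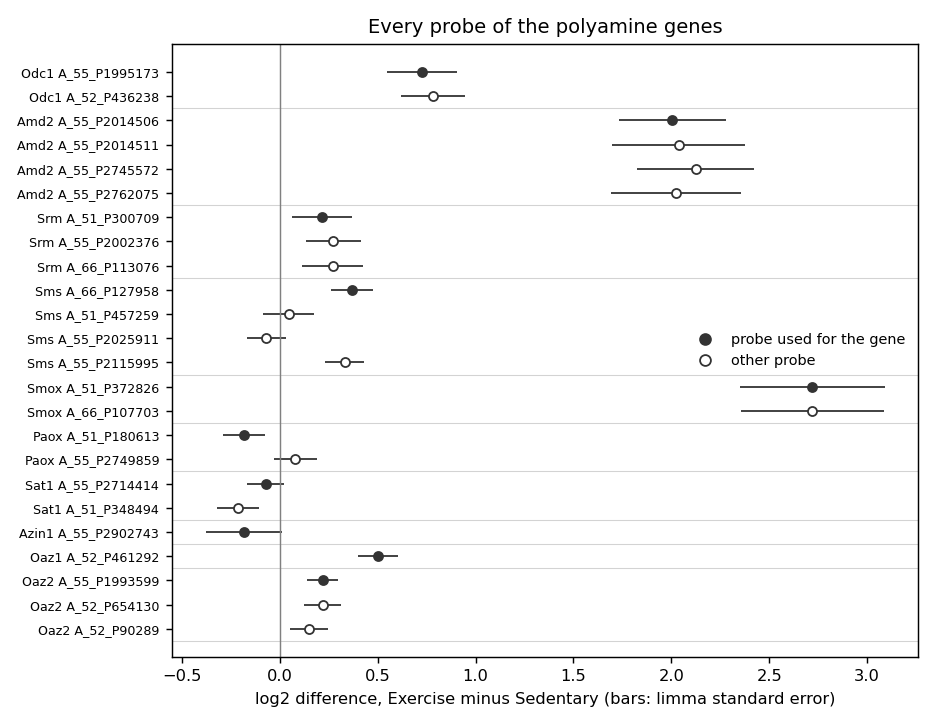
Exercise minus sedentary difference on the log2 scale (x axis) of each of the 24 probes of the 10 genes, with bars for the SE of the limma fit across probes and filled points for the probe used for the gene. The probes of Smox, Amd2 and Odc1 lie close together, whereas those of Sms range from -0.07 to 0.37.

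All 24 probes of these genes were well above background on all 6 arrays. The probes of 1 gene pointed the same way except for Sms and Paox. For 12 of the 22 probes of genes other than Smox the groups did not overlap, beside 41.8% of all 32726 probes kept. In a fit over those probes, 7 of the 22 were called higher at a limma adjusted p under 0.05, beside 10.5% of all probes kept. These 7 belonged to Amd2, with 4 probes, Odc1 and Oaz1, and probes of 1 gene are not independent.

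Array scaling bears on the smaller differences, because the 75th percentile of the signal was 251 to 257 on the exercise arrays and 310 to 384 on the sedentary arrays. With no scaling, the median of all genes moved to -0.45, and with the deposited table of values to -0.13. These settings and the chosen scaling differ by 1 constant per array, so a difference measured from that median is the same by construction. So measured, Smox was at 2.69 and Amd2 at 1.98. Quantile normalization, which is not such a shift, gave 2.60 and 1.75. Odc1 was 0.70 above that median (0.57 after quantile normalization) and Oaz1 0.48 (0.28). Without scaling, Odc1 differed by 0.25 and Oaz1 by 0.03, neither called by limma (adjusted p = 0.311 and 0.875). Sat1 at -0.54 and Paox at -0.65 were called lower there, as were 11280 of all 25005 genes and transcripts. Amd2 was called higher under each of the 5 scalings.

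**Figure D3:**
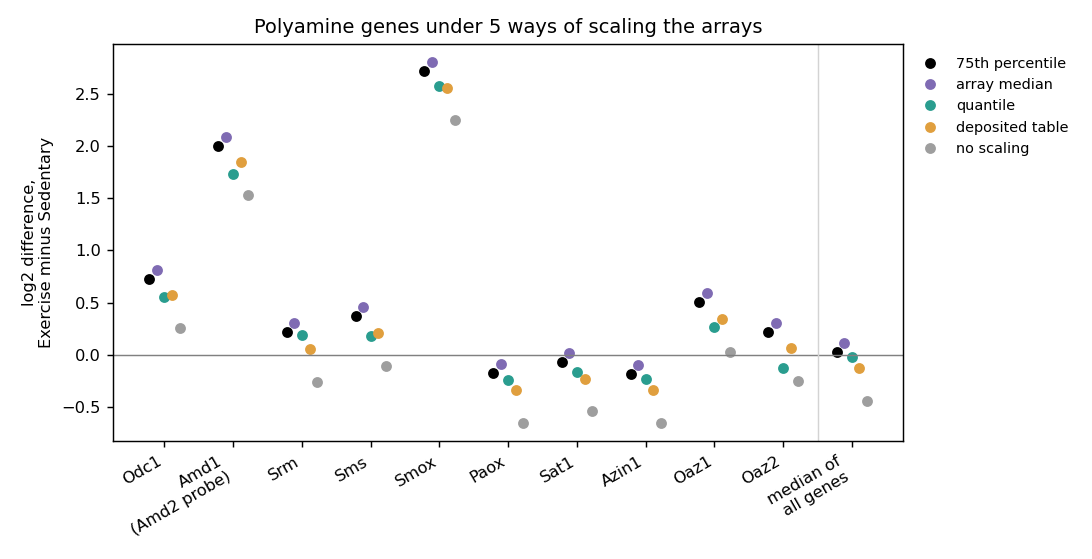
Exercise minus sedentary difference on the log2 scale for each of the 10 genes under 5 ways of scaling the arrays, with the median of all genes for each scaling. Smox and Amd2 lie at or above 1.53 under each scaling, and Oaz1 ranges from 0.03 to 0.59.

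The wider pathway was described by 46 further genes in lists by role, of which 38 passed the brightness filter. Of these, 5 rose by limma and 0 fell, and 33 were not called, with 23 differences above and 15 below 0 and a median of 0.13. The share called higher, 5 of 38, is close to the background of 11.5%. The unadjusted p was under 0.05 for 19 of them, beside the 37.0% of all genes. Without any 1 of the exercise arrays, Sedentary 2 or Sedentary 3, limma called 0 of them higher, as it did 0 of all 25005, and without Sedentary 1 it called 6.

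**Figure D4:**
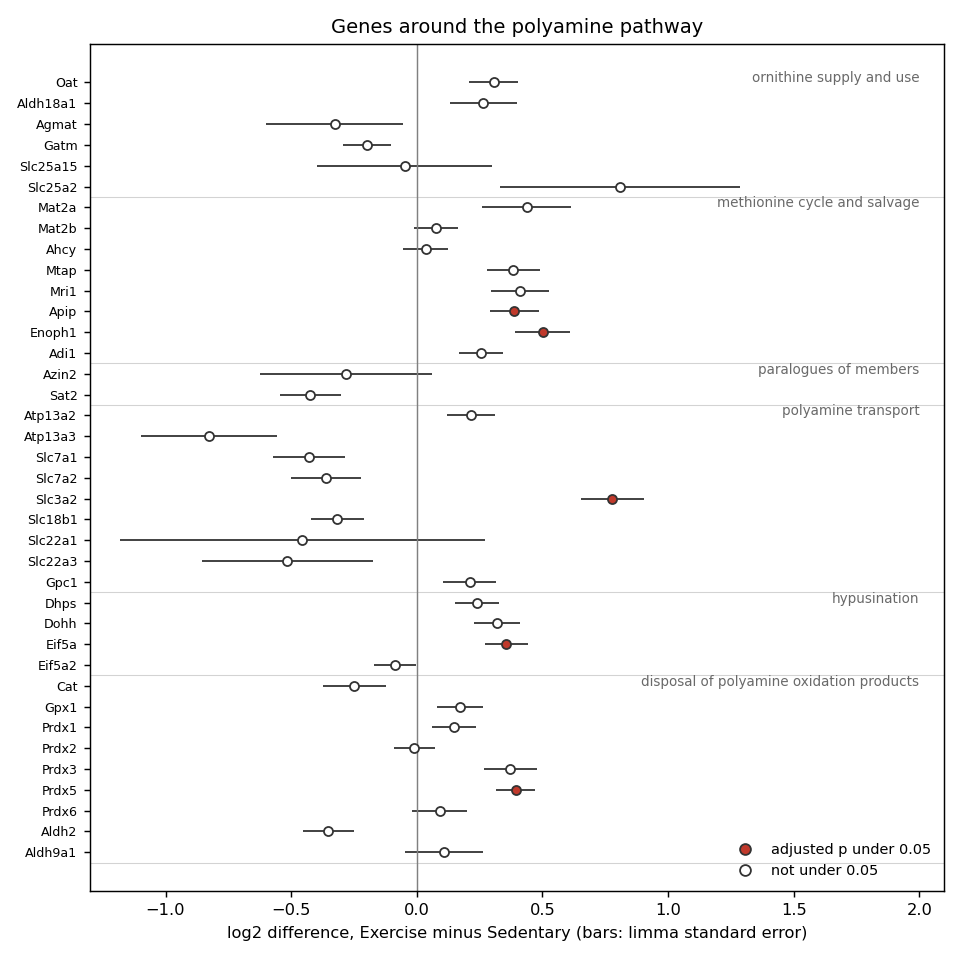
Exercise minus sedentary difference on the log2 scale (x axis) with the limma SE for the 38 tested pathway genes by list. Filled red points are the 5 genes called, all between 0.36 and 0.78.

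The methionine cycle and salvage genes, which make S-adenosylmethionine and recycle the methylthioadenosine left by spermidine and spermine synthesis, all had differences above 0. Of the 8 tested, 2 were called higher, beside 11.5% of all genes tested, and the median difference was 0.39. Apip, a dehydratase of the salvage route, read 4.18, 4.09 and 4.05 with exercise and 3.85, 3.60 and 3.71 without, and rose by 0.39 (SE 0.10, limma adjusted p = 0.044). Enoph1, the enzyme of the next step, read 2.12, 2.02 and 1.96 against 1.71, 1.46 and 1.42 and rose by 0.50 (SE 0.11, limma adjusted p = 0.033). A second Enoph1 probe gave 0.27. The groups did not overlap for either gene. Mat1a, the liver form of methionine adenosyltransferase, did not pass the filter. Without scaling the difference of Apip was -0.09 and that of Enoph1 0.03, neither called by limma (adjusted p = 0.55 and 0.84).

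Ornithine supply and use had no limma call among the 6 genes tested (3 above and 3 below 0, median 0.11, 1 at an unadjusted p under 0.05), and Arg1, Arg2 and Otc, which make or use ornithine, did not pass the filter. Of the polyamine transport genes, 9 were tested, with 6 differences below 0 and a median of -0.36. The unadjusted limma p was under 0.05 for 5 of the 9, most of them lower with exercise. By adjusted p, 0 were called lower and 1 was called higher, beside 6.12% and 11.5% of all genes tested. That gene, Slc3a2, encodes the heavy chain shared by several amino acid transporters and has been linked to polyamine export. Slc3a2 read 4.35, 4.36 and 4.21 with exercise and 3.76, 3.45 and 3.37 without, and its groups did not overlap. It rose by 0.78 (SE 0.13, limma adjusted p = 0.024), although a second Slc3a2 probe gave -0.07.

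Hypusination, which uses spermidine to modify the translation factor eIF5A, was represented by 4 genes. Of these, 3 lay above 0 and 1 was called higher, beside 11.5% of all genes tested. Eif5a, the factor itself, read 8.0, 7.96 and 7.99 with exercise and 7.72, 7.62 and 7.54 without, and rose by 0.36 (SE 0.09, limma adjusted p = 0.039) with the other probe at 0.40. Quantile normalization turned its sign to -0.09, as did leaving out the scaling, at -0.12. Of 9 genes that dispose of the hydrogen peroxide and aldehydes from polyamine oxidation, 1 was called higher, beside 11.5% of all genes tested. Their median difference was 0.11. Prdx5, a peroxiredoxin, read 6.87, 6.86 and 6.80 against 6.50, 6.44 and 6.41, with no overlap, and rose by 0.39 (SE 0.08, limma adjusted p = 0.028). Without scaling its difference was -0.08. Of the paralogues, Azin2 and Sat2 were tested and not called, and Oaz3 and Satl1 did not pass the filter.

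Genes nearest to Smox over the 6 arrays were ranked by the root mean square distance between log2 values centred on each gene's own mean. The 5 nearest of 15746 were 2310065F04Rik (0.306), Mir1a-1hg (0.308), Ppm1n (0.339), Nmrk2 (0.407) and Cited4 (0.419), where the distance is on the log2 scale. Nmrk2, a nicotinamide riboside kinase of muscle, read 5.67, 5.19 and 6.36 with exercise and 3.60, 2.91 and 3.27 without, and 2310065F04Rik read 4.22, 3.38 and 4.14 against 1.73, 1.28 and 0.73. On the 3 sedentary arrays, Ppm1n was not well above background, and its values there have no fixed level. Amd2 stood at rank 9 (0.426), at rank 20 after quantile normalization and at rank 4 after normexp background correction. Under the chosen setting the next of the polyamine genes was Odc1 at rank 767. The distance counts the size of a change as well as its shape. By Pearson correlation with Smox, Amd2 (0.99), Oaz2 (0.97) and Sms (0.93) stood above Odc1 (0.88), and Sat1, Paox and Azin1 were negative. These correlations are for the chosen scaling and probes alone. The difference of Oaz2 turned to -0.13 under quantile normalization, and the other Sms probes gave differences of 0.33, 0.04 and -0.07. Both measures were computed on the same 6 arrays that chose Smox, and they are descriptions. Of the 5 nearest genes, 3 were among the nearest 5 after quantile normalization and 2 after normexp background correction.

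In bulk muscle RNA, fewer cells of a type and less RNA per cell cannot be told apart. The labelled tissue was borne out by its markers, and the skeletal muscle list was higher with exercise. All 10 of its genes lay above 0 with a median of 0.82, and 6 of 10 were called higher, beside 11.5% of all genes tested. Its summed signal on the log2 scale was 12.10 to 12.30 with exercise against 11.15 to 11.64. The part of this list in the differences of Smox, Amd2, Odc1 and Oaz1 was not tested. Macrophage (10 genes), endothelial (7) and fibroblast (7) markers had 0 calls by limma (unadjusted p under 0.05 for 0, 1 and 0), and their summed signals overlapped between the groups. Red blood cell markers also had 0 calls by limma (0 unadjusted, summed signal 8.83 to 9.32 against 8.10 to 9.16), whereas of 6 adipocyte markers 5 lay below 0 without a call, with a median of -0.75 over the list, and 1, Lep, was called higher (summed signal 7.86 to 9.24 against 8.66 to 9.04). Schwann cell markers had 2 of 7 called lower (5.33 to 5.59 against 5.52 to 5.92), and satellite cell markers 1 of 4 (2.08 to 2.39 against 2.43 to 2.57). Of all genes tested, 6.12% were called lower. Of 6 smooth muscle markers 4 lay below 0, with a median of -0.64, and Myh11 and Lmod1 were called lower. Their summed signal points the other way (8.53 to 8.78 against 7.51 to 7.83), as does Acta2, the brightest of them and called higher at 1.32, although another Acta2 probe gave -0.89. The part of each of these lists in the results was not tested, and the marker lists were described under the chosen scaling only.

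The 6 arrays were on 1 slide and read in 1 scan. The exercise arrays and Sedentary 1 shared a strip of the slide, and Sedentary 2 and 3 lay in the other. A block for the strip therefore sets the exercise arrays against Sedentary 1 alone, and Sedentary 2 and 3 add only to its error term. Between 54.6 and 57.4% of probes were well above background on the exercise arrays and 57.8 to 59.9% on the sedentary arrays, and no spot was saturated. With the strip as a block, limma called 0 of the 9 genes, of which 3 had an unadjusted p under 0.05, and of all 25005 genes 0 higher and 3 lower, and the differences were 1.41 for Amd2, 0.80 for Odc1 and 0.50 for Oaz1 (adjusted p = 0.153, 0.217 and 0.191).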

How the data were processed

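Total RNA of 6 quadriceps samples was labelled with Cy3 and hybridised to Agilent SurePrint G3 Mouse GE v2 arrays. The deposited scanner files hold spot intensity values that the authors' Feature Extraction software (12.1.0.3, per the file headers) had background-subtracted and corrected for spatial trends. A deposited table of signal intensity was also found, equal to that processed signal times 1 factor per array (1.33 to 1.88), with no statement of how it was made. The number of arrays limits the precision.

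From the deposited intensity, log2 of the processed signal was taken without control spots (3671 of 62976) and outlier spots. Spots of a probe were averaged and the 75th percentile of each array was subtracted. The filter kept 32726 of 56605 probes, those marked as well above background on 3 or more arrays, and dropped 22 with a missing value. Probes were named by unversioned accession through a RefSeq table of GRCm38.p6 (34566 matched, 22039 not). The probe with the highest mean stood for a gene. The comparison used the limma package, version 3.58.1, under R 4.3.3 (lmFit, eBayes, two-sided, Benjamini-Hochberg over 25005 genes and transcripts), without covariates, and the call was an adjusted p under 0.05. The study's methods name iDEP with a minimum absolute log2 fold change of 1 as well, and that minimum was an alternative. The fit was tested on simulated data.

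The members and lists were chosen with earlier results of these data known. Named genes were the 10 members with all probes, the pathway genes that passed the call, and the 5 named genes nearest to Smox. Others named, such as those that did not pass the filter, were chosen after their values were seen. Groups and mouse numbers came from the labels. The labels do not say that the mice came from separate litters or cages. The p-values set the group difference against the spread within the groups of these 6 samples, moderated by limma over all genes. The strip of the slide goes largely with the group and is not accounted for there. Mice with the same number did not deviate together (correlations 0.015, 0.085 and 0.036), so the numbers were not taken as pairs.

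The alternatives were quantile normalization, array median, no scaling, the deposited table, normexp (offset 50), no filter or one requiring all arrays, averaging over probes, the most variable probe, each array left out, a replicate block, array weights, a trended robust eBayes, the strip as a block and the fold change minimum. A fit over all probes, and the ranking near Smox under other scalings, were added after seeing the data. Sequences are from RefSeq. Srm and Azin1 have no window there.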

Additional observations from a re-analysis of the deposited data

How the results depend on the processing

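As a description, since it was chosen for its rise on these arrays, Smox kept its direction in 20 of 20 alternatives (2.03 to 3.07). Amd2 also did (1.41 to 2.30, called in 13 of 20), as did Odc1 (0.25 to 0.90, called in 9) and Oaz1 (0.03 to 0.59, called in 11). These signs were partly fixed in advance. The replicate block, the trended robust eBayes and the fit over all probes leave the difference as it was. Because the groups of these genes did not overlap, leaving out an array, array weights and the strip block could not turn the sign. Signs turned for Sat1 with the array median (0.016), for Srm (-0.26), Sms (-0.10), Oaz2 (-0.25), Apip (-0.085), Eif5a (-0.12) and Prdx5 (-0.080) without scaling, and for Oaz2 (-0.13) and Eif5a (-0.090) with quantile normalization. The cause was not tested beyond the shift of all genes given above.

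Counts are given as all genes higher and lower, the 9 members higher and lower, and pathway genes higher and lower, with the chosen setting at 2868 and 1530, 3 and 0, and 5 and 0. Quantile normalization gave 1864 and 1364, 1 and 0, and 2 and 1. The array median gave 2680 and 875, 3 and 0, and 3 and 0. No scaling gave 617 and 11280, 1 and 2, and 0 and 12. The deposited table gave 1172 and 3201, 2 and 0, and 1 and 4. Normexp gave 6255 and 2026, 4 and 0, and 8 and 5. No filter gave 9741 and 1918, 3 and 0, and 11 and 1. The filter on all arrays gave 3352 and 1738, 4 and 0, and 9 and 2. The probe with the largest SD gave 2536 and 1401, 3 and 0, and 4 and 1. Array weights gave 5124 and 3627, 5 and 0, and 11 and 6. Trend and robust gave 3721 and 1988, 5 and 0, and 10 and 3. The fold change minimum gave 430 and 264, 1 and 0 (Amd2), and 0 and 0. The strip block gave 0 and 3, 0 and 0, and 0 and 0 (unadjusted p under 0.05 for 4827 genes, 3 members and 5 pathway genes, limma).

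Leaving out 1 array gave 0 to 3476 genes higher and 0 to 2060 lower, 0 to 2 members higher and 0 to 0 lower, and 0 to 6 pathway genes higher and 0 to 1 lower. Fewer samples were fitted there. Mouse numbers are shared between groups, and the labels do not say whether they mark pairs. With the replicate block limma called 0 and 0 genes, 0 and 0 members and 0 and 0 pathway genes, although 8591 genes, 4 members and 15 pathway genes had an unadjusted p under 0.05. Its adjusted p was 0.061 for Amd2, 0.067 for Odc1 and 0.062 for Oaz1, and 3 of 6 arrays correlated best with the array of the other group that has their number. Probes that were dim or hybridise to near-identical copies limit what can be said of single genes.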
